A study of Homo sapiens with 18 samples.

Results

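The miRNAs described here are 8 mature products of 4 loci that are well known in epithelial cancers. They are miR-221-3p, miR-222-3p and miR-221-5p (listed in the tables as HSA-MIR-221-3P, HSA-MIR-222-3P and HSA-MIR-221-5P), miR-31-5p and miR-31-3p (HSA-MIR-31-5P and HSA-MIR-31-3P), and miR-193a-5p, miR-193b-3p and miR-365a-3p (HSA-MIR-193A-5P, HSA-MIR-193B-3P and HSA-MIR-365A-3P). They were chosen by name, and all 8 were found among the 2167 mature miRNAs listed. The samples were wild-type (WT) HCT116 cells, an established epithelial line from a human colorectal carcinoma, with no engineered allele and no added agent in any group. Whole cell RNA was taken on day 3 at 50% confluency, on day 5 at 250% confluency and on day 7 at 400% confluency, where more than 100% means stacked layers of cells. Small-RNAseq gave 3 libraries per day, 9 in all. Whole transcriptome RNAseq also gave 3 libraries per day, of which the 3 of day 3 and the 3 of day 5 are used here. The labels call the libraries of a day biological replicates without saying whether the cultures were separate, so p-values measure the spread between these libraries. Time in culture and cell density changed together in this design and cannot be told apart, and all results are from 1 cell line.

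A miRNA is cut from a hairpin in a longer primary transcript, and the 5′ arm (5p) and 3′ arm (3p) of the hairpin can each be loaded into an Argonaute protein. The loaded strand pairs with messenger RNAs mainly through its seed, bases 2 to 8, and represses them. The miR-221/miR-222 pair is known for repressing the cell cycle inhibitors p27 and p57, miR-31 for its targets in Ras and Hippo signalling, and miR-193 and miR-365 for cyclin D1.

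In the RefSeq miRNA table (GRCh38.p14), 6 of the 8 members had a mature sequence. These are shown because the shared seeds decide which members address the same sites. The seed is in capitals, each sequence runs 5′ to 3′, and the 3p arm of miR-193a is added for comparison.
miR-221-3p: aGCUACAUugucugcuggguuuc
miR-222-3p: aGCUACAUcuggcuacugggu
miR-31-5p: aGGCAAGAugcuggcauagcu
miR-193b-3p: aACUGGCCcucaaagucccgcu
miR-193a-3p: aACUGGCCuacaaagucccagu
miR-365a-3p: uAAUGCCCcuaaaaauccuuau
miR-193a-5p: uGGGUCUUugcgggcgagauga

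miR-221-3p and miR-222-3p carried the same seed, GCUACAU. Set side by side from the 5′ end with no gap allowed, they were equal at 11 of the 21 positions compared. miR-193b-3p and miR-193a-3p also shared a seed, ACUGGCC. They were equal at 18 of 22 positions and differed by C9U, U10A, G20A and C21G, with the base of miR-193b-3p first and positions counted from 1 at the 5′ end. miR-365a-3p was identical to miR-365b-3p at all 22 positions, and both had the same value in every library. The 3p reads of the MIR365A and MIR365B loci therefore cannot be told apart.

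The hairpins lie in or near long noncoding host genes (GENCODE release 44). MIR221 at chrX:45746157-45746266 overlaps an exon of MIR222HG on the minus strand, and MIR222 at chrX:45747015-45747124 lies in an intron of the same gene, with 748 bases between the hairpins. MIR31 at chr9:21512115-21512185 lies in an intron of MIR31HG, on the minus strand. MIR193B at chr16:14303967-14304049 and MIR365A at chr16:14309285-14309371 lie in introns of MIR193BHG on the plus strand, 5235 bases apart. MIR193A at chr17:31559996-31560083 overlaps no annotated gene other than its own, and MIR365B, 15327 bases further on at chr17:31575411-31575521, overlaps an exon of MIR365BHG.

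Both a deposited and a library-total scale are used for the miRNA values, and they differ on day 7. The deposited scale is the log2 value as the authors normalized it. On it, the back-transformed values of all mature miRNAs sum to between 1542087 and 1947371 in the 6 libraries of days 3 and 5 and to between 2452607 and 2600754 in the 3 libraries of day 7. The second scale, library totals, gives each miRNA per 1000000 of that sum in its own library (CPM) and its log2. The median change of all tested miRNAs from day 3 to day 7 was 0.30 on the deposited log2 scale and -0.20 on library totals, so every day 7 change is given on both.

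The members differed widely in level. miR-221-3p was the most abundant, at 11593 ± 497 CPM on day 3, 12998 ± 354 on day 5 and 14031 ± 470 on day 7 (SD, n = 3), and ranked 18 by mean CPM among all miRNAs. miR-31-5p followed at 4778 ± 106, 5175 ± 218 and 5575 ± 87.0 CPM on the 3 days. miR-193b-3p stood at 546 ± 34.4, 729 ± 27.4 and 769 ± 57 CPM, above miR-222-3p at 387 ± 39.8, 369 ± 7.76 and 445 ± 10.8 CPM. The order of these 4 was the same on each day, with no overlap between neighbours on the log2 CPM scale. miR-365a-3p, miR-31-3p and miR-221-5p came next, with means between 78.9 and 144 CPM, and on days 3 and 7 the libraries of miR-365a-3p and miR-31-3p overlapped, as did those of miR-31-3p and miR-221-5p. miR-193a-5p was the lowest member, at 24.7 ± 1.55, 28.6 ± 1.37 and 30.3 ± 1.7 CPM.

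**Figure D1:**
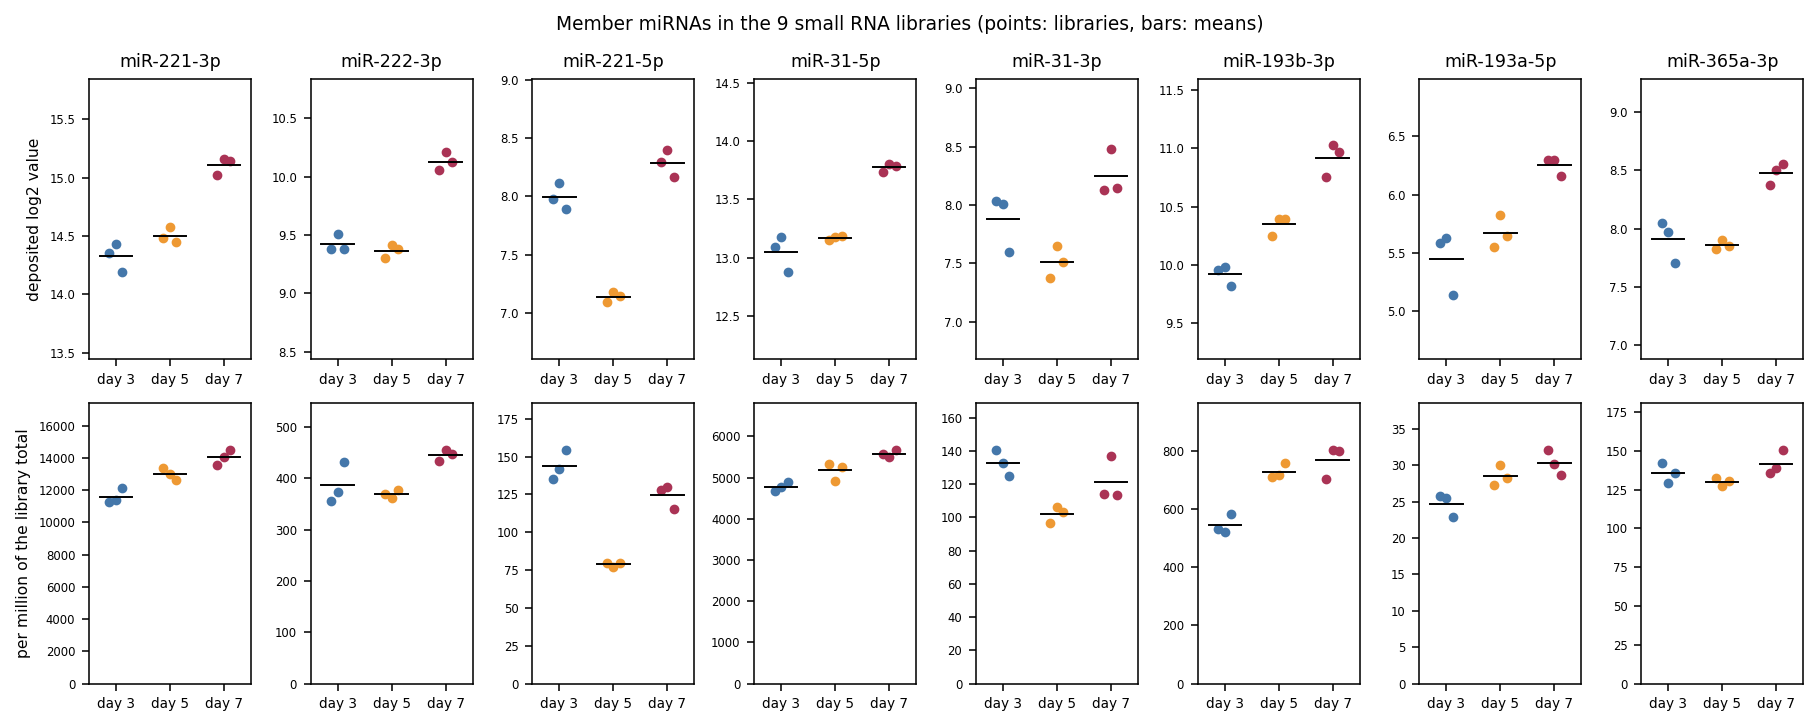
Each panel shows one member in the 9 small RNA libraries by day, with points for libraries and bars for the mean of 3; the upper row has the deposited log2 value on an axis of equal span in every panel, and the lower row the level per 1000000 of the library total on a linear axis from 0. On the deposited scale every day 7 library lies above every day 3 library in all 8 members, while miR-221-5p has its lowest points on day 5 on both scales.

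To ask whether these miRNAs changed between low and high density, day 5 was first compared with day 3. The most abundant members, miR-221-3p and miR-31-5p, did not pass the test, and the largest change was in a minor arm, miR-221-5p, the partner of miR-221-3p in the same hairpin. Its deposited log2 values were 7.98, 8.11 and 7.89 on day 3 and 7.09, 7.18 and 7.14 on day 5. All 3 day 5 libraries were below all day 3 libraries, and miR-221-5p fell by 0.85 on the log2 scale (SE 0.10, adjusted p = 0.0011, limma with Benjamini-Hochberg adjustment over 539 miRNAs), from 144 ± 9.61 to 78.9 ± 1.57 CPM. It was the 1 member of 8 called lower, where 6.31% of all miRNAs tested were called lower. These shares depend on the libraries: 80 miRNAs were called in either direction, and 37 to 122 without 1 library.

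miR-193b-3p was the 1 member called higher on day 5, where 8.53% of all miRNAs tested were. Its deposited log2 values were 9.96, 9.98 and 9.82 on day 3 and 10.25, 10.40 and 10.39 on day 5, with no overlap. It rose by 0.43 (SE 0.11, adjusted p = 0.032, limma). The adjusted p ran from 0.059 to 0.14 when any library other than day 3 replicate 3 was left out, with changes of 0.40 to 0.48, so the call rests on all of those 5 libraries.

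The remaining 6 members did not pass the test on day 5. miR-221-3p differed by 0.17 (95% CI -0.07 to 0.42), miR-222-3p by -0.06 (-0.29 to 0.17), miR-31-5p by 0.12 (-0.13 to 0.38), miR-193a-5p by 0.22 (-0.13 to 0.57) and miR-365a-3p by -0.05 (-0.32 to 0.22). On library totals miR-221-3p differed by 0.17 (95% CI 0.02 to 0.31, adjusted p = 0.0995, limma), and its days did not overlap on either scale. The days of miR-31-5p and miR-193a-5p did not overlap on library totals alone, where their changes of 0.11 and 0.21 did not pass. miR-31-3p, the minor arm of miR-31, had log2 values of 8.03, 8.01 and 7.59 on day 3 and 7.37, 7.65 and 7.51 on day 5. These overlapped on the deposited scale, with a change of -0.37 (adjusted p = 0.13, limma), and did not overlap on library totals, where the change was -0.38 (adjusted p = 0.014, limma). Day 3 replicate 3 had the low value, and without it the deposited scale gave -0.51 (adjusted p = 0.016, limma). The median change of the 8 members was 0.04, beside 0.07 over all miRNAs tested.

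Day 7, the highest density, was then compared with day 3. On the deposited scale 6 of 8 members were called higher, where 45.3% of all 559 miRNAs tested were, and none was called lower. On library totals 4 of 8 were called higher, where 16.6% of all were. The median change of the members was 0.72 beside 0.30 over all miRNAs on the deposited scale, and 0.21 beside -0.20 on library totals. In all 8 members every day 7 library was above every day 3 library on the deposited scale, which was also true of 55.8% of all miRNAs tested.

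Both members of the miR-221/miR-222 seed pair rose on the deposited scale. miR-221-3p had log2 values of 14.36, 14.43 and 14.20 on day 3 and 15.02, 15.16 and 15.14 on day 7, and rose by 0.78 (SE 0.11, adjusted p = 0.00072, limma). On library totals it rose by 0.28 (SE 0.06, adjusted p = 0.013). miR-222-3p had log2 values of 9.38, 9.51 and 9.38 on day 3 and 10.05, 10.21 and 10.12 on day 7, and rose by 0.71 (SE 0.10, adjusted p = 0.00082, limma). On library totals its change of 0.21 did not pass (95% CI -0.01 to 0.42, adjusted p = 0.086, limma). miR-221-5p had returned to 8.29, 8.40 and 8.17 by day 7, a change of 0.29 from day 3 that did not pass (adjusted p = 0.056), that passed when all 9 libraries were fitted together (adjusted p = 0.024) and that turned to -0.21 on library totals (adjusted p = 0.066, limma); without day 3 replicate 2 the deposited scale gave 0.35 with an adjusted p of 0.047.

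miR-31-5p, the major arm of miR-31, had log2 values of 13.09, 13.18 and 12.88 on day 3 and 13.74, 13.80 and 13.79 on day 7. The days did not overlap on either scale. It rose by 0.72 on the deposited scale (SE 0.11, adjusted p = 0.0011, limma) and by 0.22 on library totals (SE 0.06, adjusted p = 0.017, limma). miR-31-3p had log2 values of 8.13, 8.48 and 8.15 on day 7, and its change from day 3 was 0.37 (adjusted p = 0.077) on the deposited scale and -0.13 with library totals (adjusted p = 0.28, limma).

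Within the miR-193/miR-365 group, miR-193b-3p had the largest change, and it was the largest of the 8 members on both scales. Its day 7 log2 values were 10.75, 11.03 and 10.96, and it rose from day 3 by 1.00 on the deposited scale (SE 0.11, adjusted p = 0.00033, limma) and by 0.49 on library totals (SE 0.08, adjusted p = 0.0045, limma). miR-193a-5p, made from the related hairpin on chromosome 17, had log2 values of 5.58, 5.63 and 5.14 on day 3 and 6.30, 6.29 and 6.16 on day 7. It rose by 0.80 on the deposited scale (adjusted p = 0.0026) and by 0.30 on library totals (adjusted p = 0.02, limma). miR-365a-3p had log2 values of 8.05, 7.97 and 7.71 on day 3 and 8.38, 8.50 and 8.55 on day 7, and rose by 0.56 on the deposited scale (SE 0.12, adjusted p = 0.0055, limma). On library totals its days overlapped and the change was 0.06 (95% CI -0.11 to 0.24).

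The other arms of the same hairpins gave the following. miR-193a-3p, which shares its seed with miR-193b-3p, averaged 95.8 ± 11.7 CPM on day 3, 125 ± 8.21 on day 5 and 149 ± 3.63 on day 7. From day 3 to day 7 it rose by 1.15 on the deposited scale (adjusted p = 0.00096) and by 0.65 on library totals (adjusted p = 0.0033, limma). miR-222-5p was listed at 1668 ± 515, 1705 ± 151 and 1333 ± 278 CPM, above the level of miR-222-3p in every library, and its days overlapped. miR-193b-5p, near 10 CPM, rose by 0.62 on the deposited scale (adjusted p = 0.012) and changed by 0.12 on library totals (adjusted p = 0.62, limma). miR-365a-5p and miR-365b-5p averaged 3.52 and 0.16 CPM on day 3 and were too low to be tested.

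**Figure D2:**
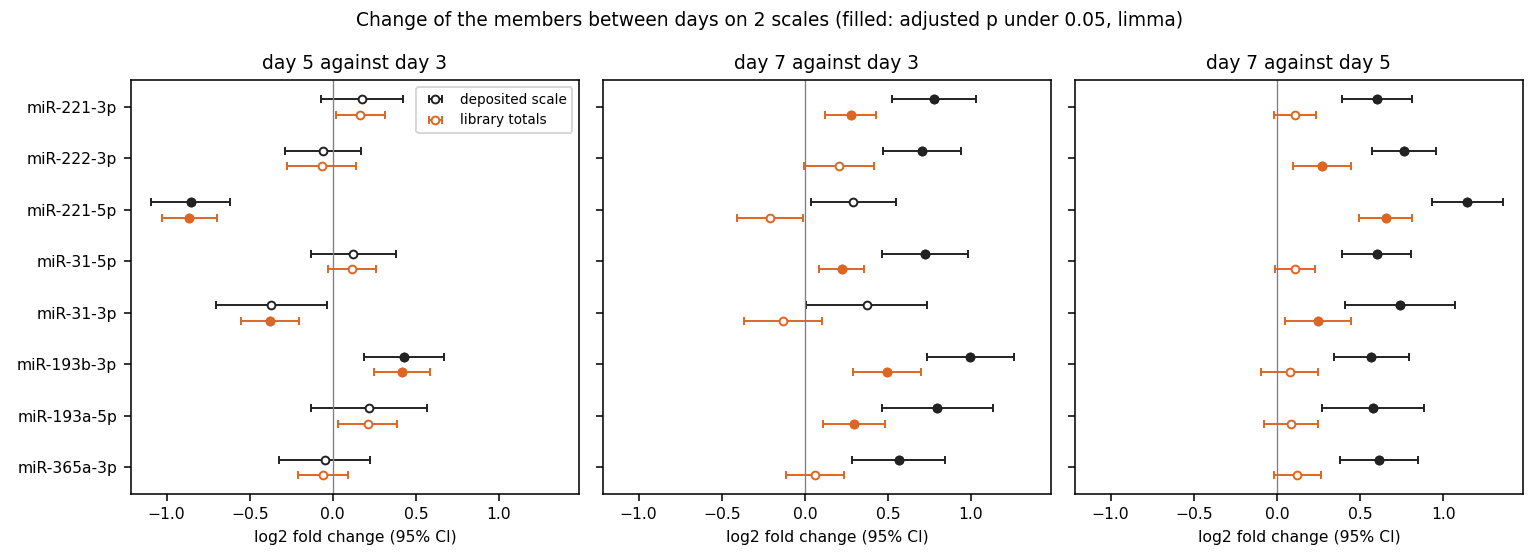
Points show the log2 fold change of each member and lines its 95% confidence interval from limma, in black for the deposited scale and in orange for library totals, with filled points where the adjusted p was under 0.05. The 2 scales nearly coincide for day 5 against day 3, while in both day 7 comparisons every orange point lies to the left of its black point.

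Between day 5 and day 7, all 8 members were called higher on the deposited scale, where 39.3% of all 567 miRNAs tested were. On library totals 3 of 8 were called higher, where 10.6% of all were. miR-221-5p rose by 1.15 (SE 0.10, adjusted p = 0.00015, limma) on the deposited scale and by 0.65 on library totals (adjusted p = 0.0005, limma). miR-222-3p rose by 0.76 and, on library totals, by 0.27 (adjusted p = 0.017, limma). miR-31-3p rose by 0.74 and, on library totals, by 0.25 (adjusted p = 0.042, limma). The other 5 members rose by 0.57 to 0.61 on the deposited scale, while their changes of 0.08 to 0.12 in library totals did not pass. This comparison shares its day 7 and day 5 libraries with those above.

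Scaling between libraries cancels in a share of the mature miRNA total and in a difference between miRNAs of the same library. The 8 members took 1.73%, 1.75% and 1.85% of the total in the day 3 libraries, 2.01%, 1.94% and 1.94% on day 5 and 2.07%, 2.13% and 2.18% on day 7. The days did not overlap, and the mean share on day 7 was 1.2 times that on day 3. For each pair of days p was 0.1 in the two-sided exact permutation test, which cannot go lower with 3 libraries per day, and 0.125 once adjusted by Benjamini-Hochberg over 15 shares and pairs. The miR-193a/b members took 1.40 times their day 3 share on day 7 and the miR-365 member 1.04 times, with overlapping libraries for the second.

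Of the 5 within-library differences, that between the arms of miR-221 had the largest change between days. miR-221-3p exceeded miR-221-5p by 6.38, 6.32 and 6.30 on the log2 scale in the day 3 libraries, by 7.39, 7.40 and 7.31 on day 5 and by 6.73, 6.76 and 6.97 on day 7. The 3 days were fully separate, with day 5 highest. The mean difference changed by 1.03 from day 3 to day 5 and by -0.54 from day 5 to day 7 (exact permutation p = 0.1 for each pair of days, the smallest possible, and 0.167 adjusted over 15 differences and pairs). There were 110 hairpins with both arms at a mean of at least 10 CPM. Among them, the change from day 3 to day 5 in larger minus smaller arm had a median of 0.04 and quartiles of -0.15 and 0.18. Ranked with sign, miR-221 was 1 from the top, while miR-4787 had a change of larger size, -4.33. From day 3 to day 7 the change for miR-221 was 0.49, rank 26, and from day 5 to day 7 it was -0.54, rank 107.

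The arms of miR-31 followed with a smaller change. miR-31-5p exceeded miR-31-3p by 5.06, 5.17 and 5.29 on day 3, by 5.78, 5.53 and 5.68 on day 5 and by 5.60, 5.33 and 5.64 on day 7. The change from day 3 to day 5 was 0.49, rank 6 of the 110 hairpins, and the libraries of days 5 and 7 overlapped. The other hairpins of the group with both arms among the 110 ranked lower for that change, miR-193b at 13 with 0.32, miR-193a at 28 with 0.18 and miR-222 at 37 with 0.14.

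miR-193b-3p and miR-365a-3p, whose hairpins MIR193B and MIR365A share the host MIR193BHG, were compared in the same way, with reads of MIR365B counted in the second. miR-193b-3p exceeded miR-365a-3p by 1.91, 2.01 and 2.11 on day 3, by 2.42, 2.49 and 2.54 on day 5 and by 2.38, 2.53 and 2.41 on day 7. Day 3 did not overlap with either later day (exact permutation p = 0.1, the smallest possible). miR-221-3p exceeded miR-222-3p by 4.91 ± 0.08 on day 3, 5.14 ± 0.06 on day 5 and 4.98 ± 0.03 on day 7, where day 5 was apart from both other days and days 3 and 7 overlapped. The difference of miR-193a-5p and miR-193b-3p overlapped between all pairs of days.

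**Figure D3:**
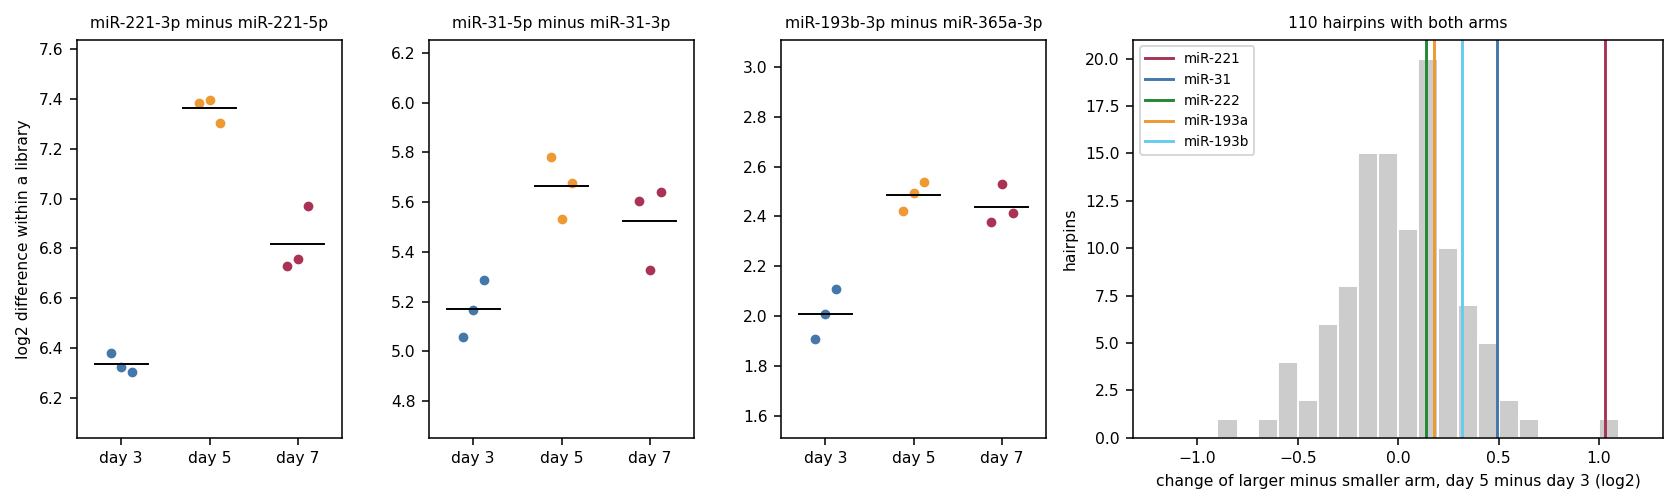
The first 3 panels show the log2 difference between a pair of miRNAs in each of the 9 libraries by day, with bars for the mean of 3. The last panel is a histogram of the change in larger minus smaller arm from day 3 to day 5 over 110 hairpins. Of these, miR-4787, at -4.33, lies outside the range of the histogram and is not drawn. The miR-221 arm difference is highest on day 5, and its change of 1.03 stands at the right end of the histogram, with miR-31 at 0.49 and miR-193b at 0.32.

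The miRNAs whose pattern was nearest to a member were found by the root mean square (RMS) difference of log2 CPM, each centred on its own mean, over the 9 libraries and 201 candidates of at least 100 CPM, leaving out the members, the other arms of their hairpins and miR-365b-3p, whose values are those of miR-365a-3p. For miR-221-3p these were miR-652-3p (RMS 0.041), miR-203b-5p and miR-132-3p. For miR-222-3p they were miR-27a-3p (0.052), miR-23a-3p and miR-186-5p, and for miR-31-5p they were miR-23b-3p (0.060), miR-200c-3p and miR-26b-5p. miR-193b-3p was nearest to miR-28-5p (0.098), miR-181a-2-3p and let-7a-5p, and miR-365a-3p to miR-27b-3p (0.053), miR-125a-5p and miR-29a-3p.

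The whole transcriptome libraries, with 27470978 to 56689369 reads on genes, allowed the host transcripts to be compared between day 3 and day 5. In these libraries 29.3% of 20129 genes tested were called higher on day 5 and 27.6% lower (limma on log2(value + 1), where value is the normalized read count). The epithelial label was checked against its markers: EPCAM, KRT8, KRT18, KRT19 and CDH1 were all expressed, with a summed normalized count of 36900 to 54939 on day 3 and 100049 to 101107 on day 5, and 4 of the 5 were called higher. The 4 leukocyte markers summed to 5.67 to 9.76 in any library. The stromal sum was 513 to 594 on day 3 and 1114 to 1181 on day 5, nearly all of it COL1A1, which was called higher, with DCN at 0 in 5 of 6 libraries and LUM not listed. How far these shifts move with the results below was not tested, and in bulk RNA fewer cells of a type and less RNA per cell cannot be told apart.

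Host transcripts were called in both directions. MIR31HG, the host of miR-31, had normalized counts of 858, 660 and 1045 on day 3 and 504, 486 and 464 on day 5. All day 5 libraries were lower, and MIR31HG fell by 0.79 on the log2 scale (SE 0.17, adjusted p = 0.0094, limma), beside a change of 0.12 for miR-31-5p and -0.37 for miR-31-3p that did not pass. MIR222HG, listed by its Ensembl identifier alone, had normalized counts of 2364, 2131 and 1864 on day 3 and 2574, 2707 and 2789 on day 5. It rose by 0.35 (SE 0.11, adjusted p = 0.034, limma), and this call was lost when any library other than day 3 replicate 1 was left out, with adjusted p of 0.053 to 0.098 and changes of 0.26 to 0.38.

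MIR193BHG was at 49.6 ± 5.72 on day 3 and 55.9 ± 5.54 on day 5 (normalized counts, SD, n = 3) and did not pass, beside the rise of miR-193b-3p from its intron. Of the hairpins listed as genes of their own, MIR221 at 109 ± 17.7 and 115 ± 19.0, MIR222 at 10.7 ± 4.29 and 14.1 ± 5.55, and MIR31 at 20.7 ± 3.21 and 15.5 ± 6.11 did not pass, and MIR193A and MIR193B were under 3 in every library. MIR365A, at 8.78, 7.42 and 4.25 on day 3 and 13, 12.9 and 15.5 on day 5, rose by 0.96 (adjusted p = 0.016, limma). That call rests on a few reads per library and was lost without day 5 replicate 3 (0.88, adjusted p = 0.052, limma) and with count tests on the reads (adjusted p = 0.058 by edgeR and 0.16 by DESeq2). Reads on a hairpin and on the host that overlaps it on the same strand may be shared, so hairpin values are uncertain.

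Genes known from elsewhere as targets of the members were then followed from day 3 to day 5. Of 41 such genes, 36 passed the filter on low values, and 21 of these were called higher and 3 lower (limma), against 29.3% and 27.6% of all genes. Their median log2 change was 0.53, beside 0.01 over all genes tested. The 5 that were too low to be tested, named after their values were seen, were KIT, ESR1, TRPS1, MMP16 and IL6. The targets were collected by name and not for how they moved, but with earlier results of these data known.

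Of the miR-221/miR-222 targets, 8 of 12 tested were called higher and none lower, where 29.3% and 27.6% of all genes were. The median change of these targets was 1.17. DDIT4, an inhibitor of mTORC1 signalling, had normalized counts of 496, 493 and 529 on day 3 and 10577, 11647 and 11961 on day 5, and rose by 4.49 (SE 0.08, adjusted p = 5.6e-05, limma). CDKN1C, which encodes the cyclin-dependent kinase inhibitor p57, went from 82.5, 108 and 115 to 466, 551 and 535 and rose by 2.35 (SE 0.15, adjusted p = 0.0002, limma). CDKN1B, which encodes p27, went from 876, 1059 and 930 to 1305, 1389 and 1400 and rose by 0.52 (SE 0.10, adjusted p = 0.0052, limma). In all of them every day 5 library was above every day 3 library.

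FOXO3, a transcription factor of stress responses, rose by 1.60, and the pro-apoptotic genes BMF and BBC3 rose by 1.46 and 1.16. ICAM1, a cell adhesion receptor, rose by 1.46 and the transcription factor ETS1 by 1.06. Among those that did not pass, named after their values were seen, were TIMP3 (0.48), PPP2R2A (0.15) and DIRAS3 (1.17, adjusted p = 0.063, limma). DIRAS3 passed without day 3 replicate 3 (1.52, adjusted p = 0.032) and TIMP3 without day 5 replicate 3 (0.63, adjusted p = 0.038, limma).

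The miR-31 targets were mixed, with 7 of 13 called higher and 2 lower, where 29.3% and 27.6% of all genes were. Their median change was 0.30. ITGA5, the alpha 5 integrin subunit, had normalized counts of 877, 997 and 1107 on day 3 and 3276, 3460 and 3627 on day 5, and rose by 1.80 (SE 0.11, adjusted p = 0.00019, limma). TIAM1, an activator of Rac, rose by 0.97, the Hippo pathway kinase LATS2 by 0.75 and RASA1, which switches Ras off, by 0.55. RDX, which links actin to the cell membrane, fell by 0.48, and FZD3, a Wnt receptor, fell by 0.46.

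Of the miR-193 targets, 4 of 9 were called higher and 1 lower, where 29.3% and 27.6% of all genes were. Their median change was 0.33. CCND1, which encodes cyclin D1 and is on the miR-365 list too, had normalized counts of 8495, 11298 and 12109 on day 3 and 25852, 23371 and 24870 on day 5, and rose by 1.23 (SE 0.15, adjusted p = 0.00095, limma). PLAU, the urokinase protease, rose by 1.19, ETS1 by 1.06 and the survival factor MCL1 by 0.57. STMN1, which destabilizes microtubules, fell by 0.85. Of the miR-365 targets 4 of 5 were called higher: besides CCND1 these were the histone deacetylase HDAC4 (1.22), the signalling adaptor SHC1 (0.93) and NKX2-1 (1.93), a transcription factor at only 9.02 ± 6.31 normalized counts on day 3 and 31.9 ± 6.38 on day 5. The NKX2-1 call was lost without day 3 replicate 1, day 5 replicate 2 or day 5 replicate 3 (adjusted p = 0.051 to 0.063, limma, with changes of 1.81 to 2.03).

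**Figure D4:**
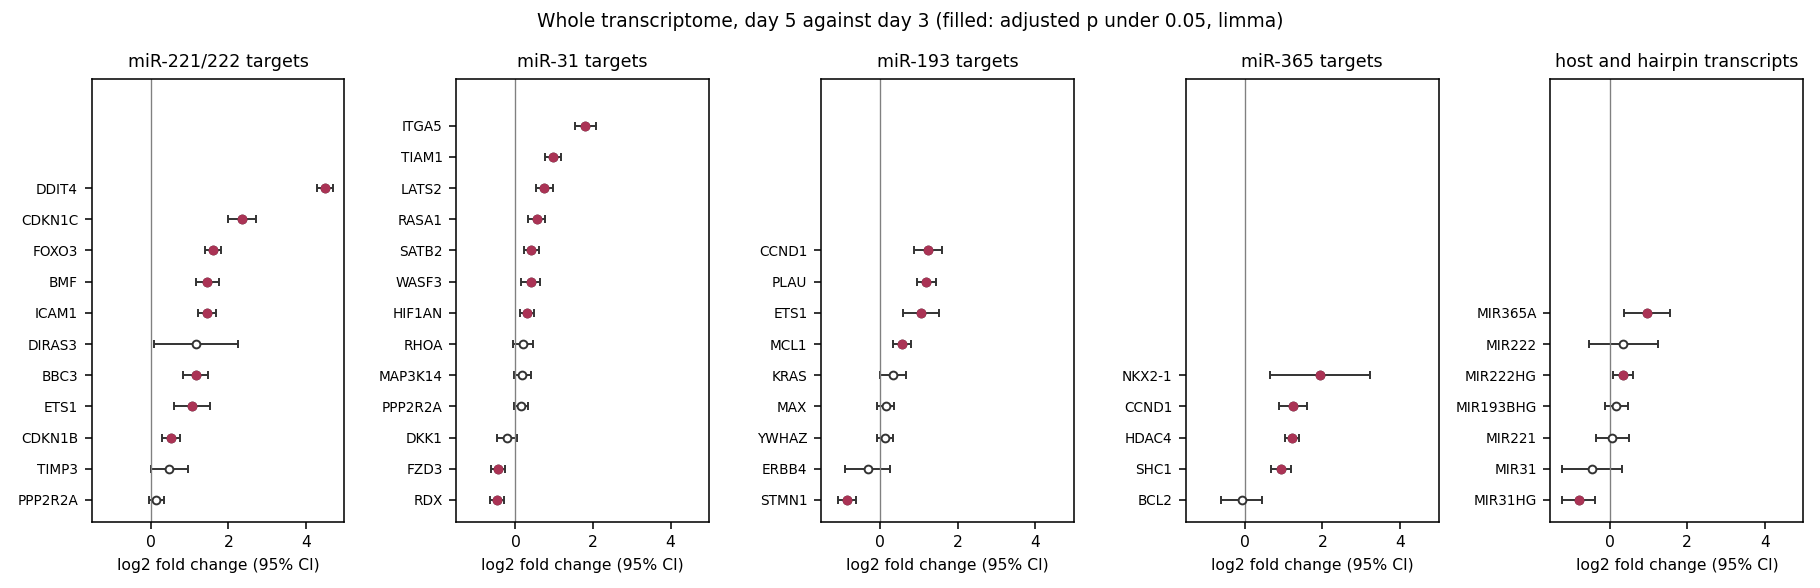
Points show the log2 fold change of normalized counts from day 3 to day 5 for tested genes of the target lists and for host and hairpin transcripts, lines show 95% confidence intervals from limma, and filled points had an adjusted p under 0.05. DDIT4 at 4.49 lies furthest to the right and STMN1 at -0.85 is the lowest filled target.

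Examples of seed matches in 3′ untranslated regions (UTRs) of some of these genes are shown so that the pairing sequence can be set beside their changes. They are windows of canonical GENCODE transcripts on hg38, 5′ to 3′ on the strand of the gene, with the 7 bases that pair with the seed in capitals.
CDKN1B, chr12:12721214-12721235, plus strand, for miR-221-3p and miR-222-3p: tctaaaagcgttggATGTAGCa
CDKN1B, chr12:12721287-12721308, plus strand, for miR-221-3p and miR-222-3p: agtttttaccttttATGTAGCa
CDKN1C, chr11:2883828-2883849, minus strand, for miR-221-3p and miR-222-3p: ggctgggaccgttcATGTAGCa
LATS2, chr13:20974173-20974194, minus strand, for miR-31-5p: ataaaattaccataTCTTGCCa
RASA1, chr5:87390947-87390968, plus strand, for miR-31-5p: aatgtctcctttgcTCTTGCCa
CCND1, chr11:69652716-69652737, plus strand, for miR-193b-3p: gaggatgttcataaGGCCAGTa
MCL1, chr1:150577041-150577062, minus strand, for miR-193b-3p: gagaacaggaaagtGGCCAGTa
STMN1, chr1:25900950-25900971, minus strand, for miR-193b-3p: ccaaagactgtactGGCCAGTg
SHC1, chr1:154962889-154962910, minus strand, for miR-365a-3p: ggaggtgagaaaagGGGCATTg

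These examples were chosen after the values of the genes were seen. Of the 8 genes shown, 7 rose from day 3 to day 5 and STMN1 fell, and FZD3, which also fell, carries 3 matches to the miR-31-5p seed that are not shown. The 7 letters were searched on the strand of the transcript only. ATGTAGC was found in 10 of 15 genes of the miR-221/miR-222 list and in 8.92% of all 13021 tested genes with an annotated UTR, TCTTGCC in 8 of 14 of the miR-31 list and 14.1% of all, GGCCAGT in 9 of 10 of the miR-193 list and 11.9% of all, and GGGCATT in 5 of 6 of the miR-365 list and 10.3% of all. Genes were put on these lists partly for such matches. Of the called targets named above, DDIT4, FOXO3 and ICAM1 had no ATGTAGC in the UTR searched. ITGA5, TIAM1 and RDX had no TCTTGCC, ETS1 had no GGCCAGT, and CCND1 had no GGGCATT. Over all genes with a match, the median log2 change from day 3 to day 5 was 0.02 for ATGTAGC, 0.24 for TCTTGCC, 0.32 for GGCCAGT and 0.21 for GGGCATT, beside 0.12 over all genes with a UTR. UTRs with a match were longer, with medians of 2994 to 3358 bases against 1289 over all, and the part of UTR length in these medians was not tested.

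Of the factors known from elsewhere to act on these loci, 5 of 10 tested were called higher and 3 lower. Of all genes tested, 29.3% were called higher and 27.6% lower. The AP-1 subunits FOSL1 and JUN rose by 1.82 and 0.88, and RELA, a subunit of NF-kappaB, by 1.41. Another AP-1 subunit, FOS, named after its values were seen, changed by -0.68 with no overlap and did not pass (adjusted p = 0.052, limma). FOS passed without day 3 replicate 1 (-0.89, adjusted p = 0.018, limma). The repressors ZEB1 and ZEB2 fell by 0.78 and 1.53, ZEB2 from only 15.1 ± 2.06 to 4.95 ± 2.44 normalized counts. The JUN call was lost without day 3 replicate 2, day 5 replicate 2 or day 5 replicate 3 (adjusted p = 0.053 to 0.069, limma, with changes of 0.80 to 0.91).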

How the data were processed

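Small-RNAseq and whole transcriptome RNAseq libraries of HCT116 cells were grouped by the day and confluency in their labels. Per the study's methods, the authors trimmed small RNA reads with Cutadapt, aligned them to GRCh37 mature and hairpin miRNAs and normalized by TMM in edgeR. The deposited log2 values have an unnamed transformation (1321 of 2167 miRNAs have a value below 0), their depth is unknown, and both small RNA tables hold identical values. The deposited whole transcriptome values are a normalized signal per gene: reads mapped strand-specifically to hg38 genes (submitters' notes: bcl2fastq, FastQC 0.11.8, MultiQC 1.7) and divided by 1 factor per library, so that 100% of values were whole multiples of 1 read within 0.01 reads. Columns of fold changes and adjusted p-values from the authors' comparisons were not used. Day 7 whole transcriptome values were not analysed here.

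miRNAs and genes with a back-transformed value of at least 10 in at least 3 libraries of the comparison were tested with limma 3.58.1 in R 4.3.3, without pseudocount for miRNAs and on log2(value + 1) for genes, with Benjamini-Hochberg adjustment and a threshold of 0.05. Fold changes on that scale understate low genes. Both comparisons with day 3 were fitted on the 6 libraries concerned, and day 7 against day 5 over all 9. edgeR 4.0.16 on the recovered reads called 12280 genes (6245 higher) and DESeq2 1.42.0 called 11530, against 11450 by limma. The limma and edgeR steps were tested on simulated data. Of 13081 identifiers without a symbol, 10641 were named from a reference table, MIR222HG among them. For shares and within-library differences, two-sided exact permutation tests were run. Sequences came from RefSeq and hg38 with GENCODE release 44.

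The members and lists were chosen with earlier results of these data known. Named were all members, other arms of their hairpins, the 3 nearest miRNAs of 5 members, every host or hairpin transcript with a value, and the targets and regulators past the threshold, or the 6 with the largest change where more passed, plus carriers of a printed seed match; 2 list genes counted in the totals are not reported here by name. Alternatives were library totals, no filter, a pseudocount of 0.1, a replicate block, all 9 or only 6 libraries, leaving out each library, a 2-fold minimum, and count tests on reads. Median centring and combinations with library totals were added after seeing the data. Python 3.11.15 with pandas, scipy and matplotlib handled tables and figures.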

Additional observations from a re-analysis of the deposited data

How the results depend on the processing

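Library totals in place of the deposited scale moved the members most. The number of members called in day 7 against day 5 went from 8 to 3 (3 also with the replicate block), and in day 7 against day 3 the changes of miR-221-5p and miR-31-3p turned to -0.21 and -0.13 (the same with the block). With median centring, 8 of 8 members were called higher in day 7 against day 5, where 24.7% of all miRNAs tested were. In day 7 against day 3 that setting called 6 of 8 higher, where 33.3% of all were. In day 5 against day 3, 2 members were called on the deposited scale, and 1 with no filter or with the replicate block. Leaving out each library in turn gave 1 to 4 members called in day 5 against day 3, 2 to 7 in day 7 against day 3 and 1 to 8 in day 7 against day 5, where the low ends for day 7 came from library totals and the deposited scale gave 6 to 7 and 8. In day 5 against day 3 miR-365a-3p changed by -0.15 to 0.020 without 1 library (above 0 without day 3 replicate 1), and miR-222-3p by 0.016 on library totals without day 3 replicate 3. On library totals without 1 library, taken in the order of day 3 replicates 1 to 3 and day 7 replicates 1 to 3, the change from day 3 to day 7 was -0.25, -0.22, -0.16, -0.23, -0.24 and -0.16 for miR-221-5p and -0.089, -0.13, -0.17, -0.089, -0.22 and -0.084 for miR-31-3p. The change of miR-193a-5p minus miR-193b-3p from day 5 to day 7 ran from -0.096 to 0.079. Of the targets, 24 were called (21 higher), 12 at 2-fold or more (12 higher) and 22 to 26 without 1 library. Of all 20129 genes tested, 11450 were called (5900 higher), and 9811 to 11380 without 1 library. The share of all genes past the 2-fold minimum was not counted, so the 2-fold count of targets has no background beside it. BCL2 changed by -0.28 to 0.059 and MIR221 by -0.027 to 0.21 without 1 library. The causes were not tested.

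Same-numbered small RNA libraries of days 3 and 5 correlated at 0.09 to 0.12 in their deviations, each best with its own number. In the other comparisons same-numbered libraries correlated at -0.08 to 0.09. The labels do not say whether an equal number marks a shared culture or batch, and this was not tested. With the replicate block, 71 miRNAs in place of 80 were called in day 5 against day 3, 302 in place of 300 in day 7 against day 3, and 254 in place of 251 in day 7 against day 5, and 10533 genes in place of 11450. Under the block miR-193b-3p in day 5 against day 3 had an adjusted p of 0.051 (limma), miR-31-3p in day 7 against day 3 one of 0.039, and MIR222HG one of 0.082. Counts over all miRNAs differed by more than 1.5 times for day 5 against day 3 on library totals and with median centring (135 each against 80) and with no filter (50), and on the deposited scale without any 1 library (45, 48 and 122 without day 3 replicates 1, 2 and 3, and 37, 41 and 37 without day 5 replicates 1, 2 and 3), and for day 7 against day 5 with no filter (164 against 251). The share called higher moved from 253 of 300 to 93 of 319 on library totals in day 7 against day 3. Small RNA depth is unknown, which limits what can be said of miR-365a-5p, miR-365b-5p and miR-193b-5p.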
